A study of Mus musculus with 4 samples.

Results

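The GABA-A receptor is a pentameric chloride channel, and 7 of its subunit genes are described here in the mouse dentate gyrus after electroconvulsive stimulation (ECS), a brief current train that triggers a seizure. The 7 genes were taken by symbol from the deposited list of probesets per transcript, and each had at least 1 probeset. They were Gabrd, Gabra4 and Gabra5, which encode the delta, alpha4 and alpha5 subunits of mostly extrasynaptic receptors, and Gabra2, Gabra3, Gabrb1 and Gabrb2, which encode subunits found mainly at synapses. They are 7 of 16 GABA-A subunit genes described here and of 18010 genes in all. The split follows the usual location of the receptors, although beta subunits also take part in extrasynaptic receptors.

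As background, GABA-A receptors open on binding GABA, the main inhibitory transmitter of the brain. Receptors clustered at synapses give brief inhibitory currents. In dentate granule cells, receptors that pair alpha4 with delta lie outside synapses, respond to low ambient GABA, carry a steady tonic current and are a main target of neurosteroids.

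Dissected dentate gyrus from wild-type C57/Black6 male mice aged 8 wk was measured on exon arrays. Both groups were taken at 4 h: 2 arrays after sham handling and 2 after ECS, given for 1.0 s as pulses of 0.3 ms and 18 mA at 100 Hz. The labels name biological replicates but not how many animals each array held, so the p-values measure only the spread between these arrays. Values are log2 array signals. Each gene's value equalled the mean over its probesets, the short exon regions that the array measures separately. Levels were compared between arrays but not between genes, since probesets differ in how well they bind. Because each array is a tissue extract, fewer cells of a type and less RNA per cell cannot be told apart.

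The marker lists moved between arrays as follows. All 9 granule cell markers had values, and their mean level was 8.74 on sham A and 8.83 on sham B against 8.05 on ECS A and 8.11 on ECS B. The median difference of the 9 was -0.52, and Tdo2, at -2.86, had the largest. Of the 9, 6 were lower on both ECS arrays, against 30.7% of all genes, and of these only Tdo2 and Dsp passed the test. Prox1, the defining granule cell factor (0.22), and Npnt (0.06) were higher on both, and C1ql2 (-0.08) overlapped. The 4 measured blood markers, of which Hba-a1 and Hba-a2 had equal values, were all higher on both ECS arrays, against 18.7% of all genes, and none passed the test. The mean of 6 choroid plexus markers was 7.73 on sham B and 5.82 to 6.21 on the other arrays. The mean of 5 oligodendrocyte markers was highest on ECS A, at 9.97 against 9.29 to 9.59 elsewhere. The mean of 8 interneuron markers lay between 8.76 and 8.91 on all arrays. The mean of 4 mossy cell markers was 7.39 on sham A and 7.41 on sham B against 7.26 on ECS A and 7.21 on ECS B. Of these 4, 2 were lower on both ECS arrays, against 30.7% of all genes, and none passed. Means lay between 8.33 and 8.49 for 8 pyramidal cell markers and between 9.40 and 9.49 for 5 astrocyte markers. Those of 4 microglia markers lay between 6.71 and 7.05. The part of all these lists in the results below was not tested.

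Among the 7 genes, Gabrd fell after ECS and no other passed the test in either direction. The differences of the extrasynaptic genes ran from -0.83 to 0.60, and those of the 4 synaptic genes from -0.10 to 0.11. Thus 1 of 3 extrasynaptic genes was lower, 2 did not pass, and none of the 4 synaptic genes passed. Over all genes 0.194% were called lower and 0.5% higher, at an adjusted p under 0.05 in limma with Benjamini-Hochberg adjustment. The median difference was 0.01 over the 7 genes and -0.04 over all genes. No test was made between the extrasynaptic and synaptic groups. The plot of the 7 genes by array shows how closely the arrays of each group lay.

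**Figure D1:**
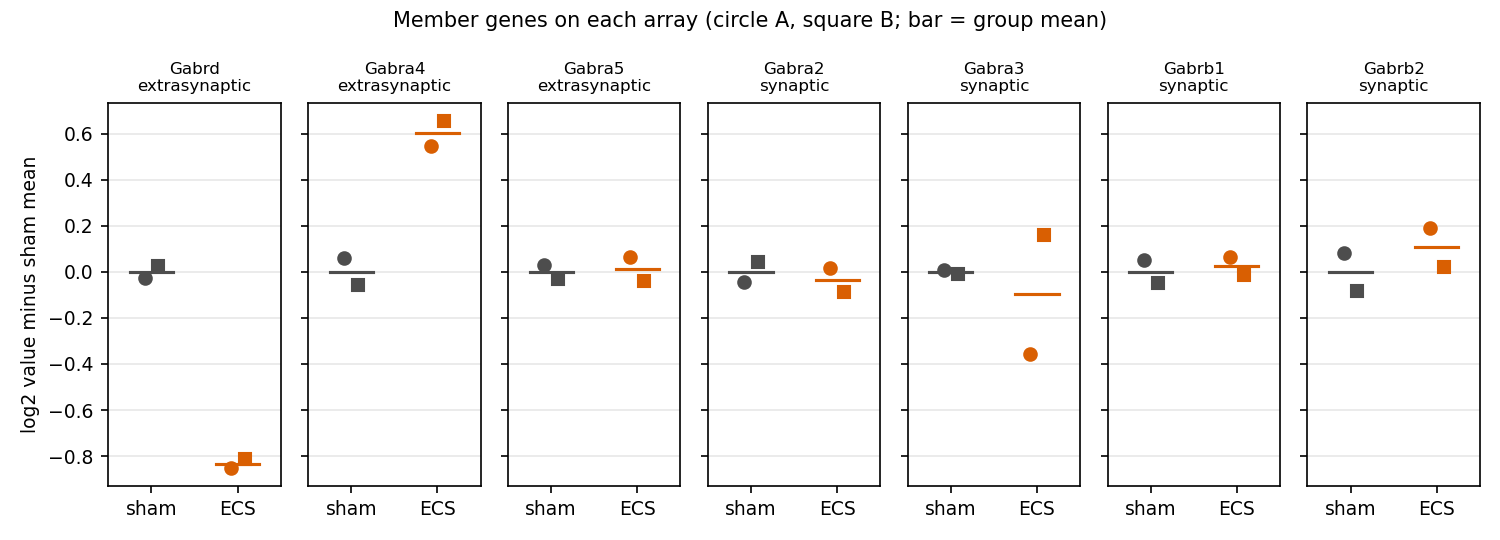
Log2 value of each member gene on each array, minus the mean of its 2 sham arrays (vertical axis), for sham (grey) and ECS (orange); circles are arrays A, squares arrays B and bars group means. Both ECS arrays lie below sham for Gabrd and above it for Gabra4, the ECS arrays of Gabra3 lie on either side of sham, and for the other genes the arrays of the groups overlap.

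Gabrd, on chromosome 4, encodes the delta subunit, which places the receptor outside the synapse and gives it its high affinity for GABA. It read 7.96 on sham A and 8.02 on sham B, against 7.14 on ECS A and 7.18 on ECS B. Both ECS arrays were lower than both sham arrays, and the arrays of a group differed by 0.05 (sham) and 0.04 (ECS). Gabrd therefore fell from 7.99 ± 0.04 to 7.16 ± 0.03 (SD, n = 2 per group), by 0.83 ± 0.09 (SE) on the log2 scale, or 1.78-fold (adjusted p = 0.0389). The 95% interval of the difference ran from -1.06 to -0.61. It was the 61st lowest difference of 18010. Of the 9 granule cell markers, 6 were lower and 2 higher on both ECS arrays, and their part in the fall of Gabrd was not tested. The size held but not the call when any 1 array was left out: differences were -0.86 without sham A, -0.81 without sham B, -0.81 without ECS A and -0.85 without ECS B, with adjusted p from 0.136 to 0.162. Subtracting each array's median also ended the call (-0.76, adjusted p = 0.0552), as did taking the median over probesets (-1.06, adjusted p = 0.140). Over all genes, 90 higher and 35 lower calls became 80 and 18 with array medians subtracted and 0 and 0 with probeset medians.

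The fall of Gabrd was shared by most of its 8 probesets, none of which is listed for another gene. All 8 had negative differences, and 7 were lower on both ECS arrays than on both sham arrays, against 25.6% of all 229712 probesets. The largest difference, -1.44, came from a probeset that read 8.11 and 8.20 in the sham samples and 6.55 and 6.88 in the ECS samples. Another had -1.39, and 5 more lay between -0.91 and -0.67. The exception was the brightest probeset, at 10.2 and 9.89 in sham and 10.1 and 9.88 in ECS samples, with a difference of -0.08 and overlapping groups. The gene value includes this probeset with the same weight as the others. Probesets of a gene share the same RNA and are not replicates.

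Gabra4, on chromosome 5, encodes the alpha4 subunit that partners delta in granule cells. It read 10.1 on sham A and 9.99 on sham B, against 10.6 on ECS A and 10.7 on ECS B. Both ECS arrays were higher than both sham arrays, the opposite direction to Gabrd. The means were 10.04 ± 0.08 and 10.65 ± 0.08 (SD, n = 2 per group), a difference of 0.60 ± 0.10 (SE), or 1.52-fold. This did not pass the threshold (adjusted p = 0.0894), with a 95% interval from 0.35 to 0.85, and was the 255th highest difference. It passed when the dimmest 25% of genes were left out (adjusted p = 0.0373) and with a moderated spread that follows brightness and resists outliers (adjusted p = 0.00807), settings that raised the calls over all genes from 90 higher and 35 lower to 242 and 216 and to 365 and 352. It did not pass with any 1 array left out (adjusted p = 0.195 to 0.289) or with medians over probesets (0.50, adjusted p = 0.276). Gabra4 was the only 1 of the 7 genes higher on both ECS arrays, as were 18.7% of all genes, and Gabrd the only 1 lower on both, as were 30.7%.

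Of the 13 Gabra4 probesets, 11 were higher in both ECS samples than in both sham samples, against 17.6% of all probesets. The 9 of these with a mean level above 10 had differences between 0.48 and 0.78. The largest difference, 1.64, came from a dimmer probeset that read 7.39 and 6.59 in sham and 8.67 and 8.58 in ECS samples. The dimmest, at 5.41 and 4.17 in sham and 5.42 and 6.19 in ECS samples, had 1.01 with wide scatter. A probeset with -0.20 was lower in both ECS samples, and another, with -0.05, overlapped. The exon each probeset covers was not given in the sources used here.

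**Figure D2:**
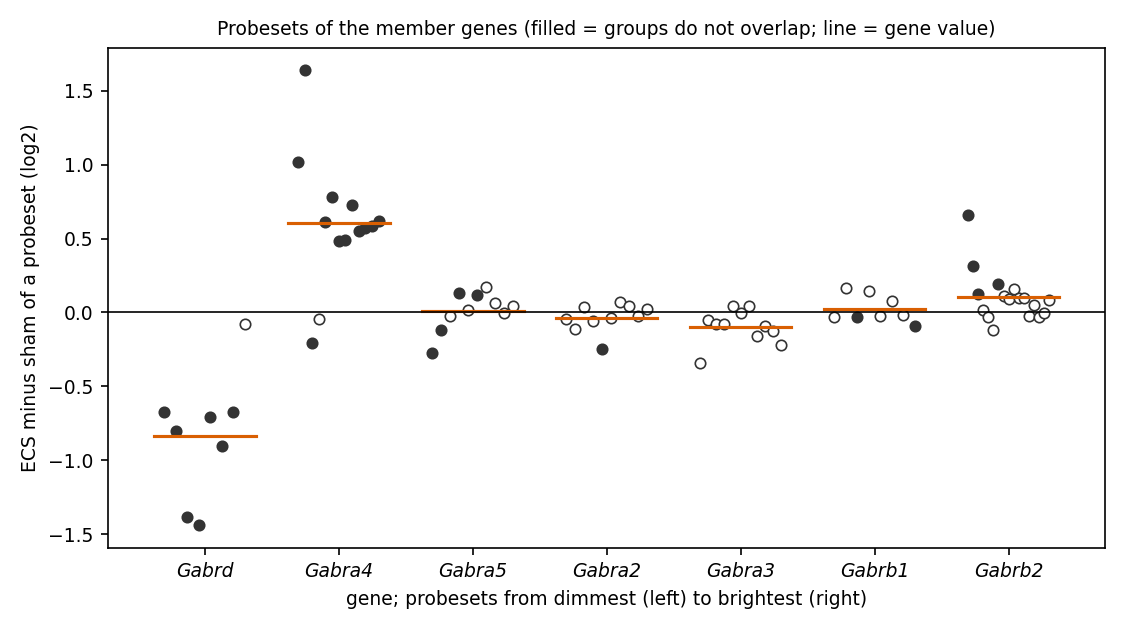
ECS minus sham (log2, vertical axis) of each probeset of the 7 member genes, ordered within a gene from dimmest to brightest; filled points are probesets whose sham and ECS samples do not overlap, and orange lines are the gene values. Gabrd has 7 of 8 filled points below 0 with its brightest probeset near 0, and Gabra4 has 11 of 13 filled points above 0.

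Tested one by one, no probeset passed the threshold over all 229712 in limma, for members or for any other gene. The smallest adjusted p of all was 0.389. Gabrd probesets with unadjusted p of 0.000907 and 0.00101 shared this value, so it does not rank them first among all probesets. At an unadjusted p under 0.05 there were 7 of 8 Gabrd and 10 of 13 Gabra4 probesets and 1 of 17 for Gabrb2, none for the other 4 genes, and 10.2% of all probesets.

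The promoter window of Gabra4 is shown with that of its chromosome neighbour Gabrb1, because one of these adjoining genes differed between the groups by 0.60 and the other by 0.02. Both windows are from RefSeq (GRCm38.p6), run from 250 bases before to 50 after a transcript start, and are written 5′ to 3′ on the gene's strand. Gabra4 lies on the minus strand at chr5:71658259-71658558 and the upstream start of Gabrb1 on the plus strand at chr5:71657671-71657970. This Gabrb1 start lies 387 bases inside Gabra4. The Gabrb1 transcript on the array starts 41.7 kb beyond the Gabra4 start in the authors' file, near the other RefSeq start of Gabrb1 at 41.6 kb. The Gabrb1 difference of 0.02 belongs to this transcript, and the window of that other start is not printed. Capitals mark matches to GCGNGGGCG, a motif of the EGR zinc finger family.
Gabra4: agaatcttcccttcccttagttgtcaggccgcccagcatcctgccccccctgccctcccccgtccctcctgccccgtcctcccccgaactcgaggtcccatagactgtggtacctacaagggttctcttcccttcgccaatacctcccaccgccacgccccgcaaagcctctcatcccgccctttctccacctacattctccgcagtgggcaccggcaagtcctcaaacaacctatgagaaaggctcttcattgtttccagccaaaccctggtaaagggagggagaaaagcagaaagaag
Gabrb1: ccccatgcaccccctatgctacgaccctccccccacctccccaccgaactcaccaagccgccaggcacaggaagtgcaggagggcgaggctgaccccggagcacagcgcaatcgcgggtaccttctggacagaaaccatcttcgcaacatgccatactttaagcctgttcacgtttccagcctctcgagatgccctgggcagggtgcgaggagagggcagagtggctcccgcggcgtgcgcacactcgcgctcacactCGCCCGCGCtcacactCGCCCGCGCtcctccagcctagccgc

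The motif GCGNGGGCG was searched on both strands, as were TGACGTCA, the CRE bound by CREB-type factors, its core TGACG, and TGANTCA, bound by AP-1. Of 32851 windows of the same length, 5.55% held the EGR motif, 1.79% the CRE, 20.8% its core and 7.81% the AP-1 motif. These windows do not cover every chromosome. The core is contained in the CRE. The Gabra4 window held none of these motifs. The upstream Gabrb1 window held the EGR motif on the minus strand at bases 9 to 17 and 25 to 33 after the start. The other Gabrb1 window, near the start of the transcript on the array, held none of these motifs. Of the 10 windows listed for members, the first Gabrb2 window also held it, with the CRE core spanning the start, and no member window held the CRE or the AP-1 motif. These matches describe the sequence only.

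Gabra5, the third extrasynaptic gene, lies on chromosome 7 and encodes the alpha5 subunit of tonic receptors best known from pyramidal cells. It read 11.04 and 10.98 on the sham arrays and 11.08 and 10.97 on the ECS arrays, so the groups overlapped. The difference was 0.01 ± 0.09 (SE, adjusted p = 0.965), with a 95% interval from -0.23 to 0.25. Of its 10 probesets, 2 were higher and 2 lower in both ECS samples, near the shares of 17.6% and 25.6% over all probesets.

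None of the 4 synaptic genes passed the test, and the ECS and sham arrays overlapped for each. Gabra2, whose alpha2 subunit is common in forebrain synapses and at axon initial segments, read 11.35 and 11.43 in sham and 11.41 and 11.31 after ECS. Its difference was -0.03, with a 95% interval from -0.28 to 0.21. Gabrb1, which encodes a beta subunit and lies beside Gabra4, read 10.98 and 10.88 in sham and 10.99 and 10.92 after ECS, a difference of 0.02 (interval -0.21 to 0.26). Gabrb2, another beta subunit gene, read 10.5 and 10.3 in sham and 10.6 and 10.4 after ECS, a difference of 0.11 (interval -0.18 to 0.39). For these 3 genes adjusted p lay between 0.680 and 0.921. The lower bounds of these intervals, from -0.28 to -0.18, lay above the upper bound of Gabrd at -0.61. That of Gabra3, at -0.56, lay nearer to it. The synaptic genes were not tested against Gabrd.

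Gabra3, an X-linked gene for the alpha3 subunit, was the least repeatable. It read 9.60 and 9.58 on the sham arrays but 9.23 on ECS A and 9.75 on ECS B. The ECS arrays thus lay on either side of sham, and the gap of 0.52 between them was matched or exceeded in 3.65% of all genes. All 11 of its probesets were lower in the first ECS sample than in the second. The difference was -0.10 ± 0.18 (SE, adjusted p = 0.829) with an interval from -0.56 to 0.36, and without ECS A it was 0.16. ECS A was also the array with the highest oligodendrocyte markers, whose part in this gap was not tested.

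The 9 other subunit genes described here contained no call, with a median difference of 0.06. Of these, 2 were higher and 1 was lower on both ECS arrays, against 18.7% and 30.7% of all genes. The lowest difference was that of Gabre, the epsilon subunit gene, which read 3.81 and 3.83 in sham and 3.52 and 3.71 after ECS (-0.20 ± 0.10 SE, adjusted p = 0.398). Gabra6, whose alpha6 subunit is best known from cerebellar granule cells, had the highest, from 3.94 and 3.70 to 4.06 and 3.89 with overlapping groups (0.16 ± 0.13 SE, adjusted p = 0.579). Both were among the dimmest 25% of genes, where signal over background was not measured, as were Gabrp, Gabrq, Gabrr1, Gabrr2 and Gabrr3. The brighter Gabrg1 and Gabrg3, which encode gamma subunits, had 0.01 and -0.01. The plot of subunit differences shows Gabrd and Gabra4 at the ends of the genes drawn.

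**Figure D3:**
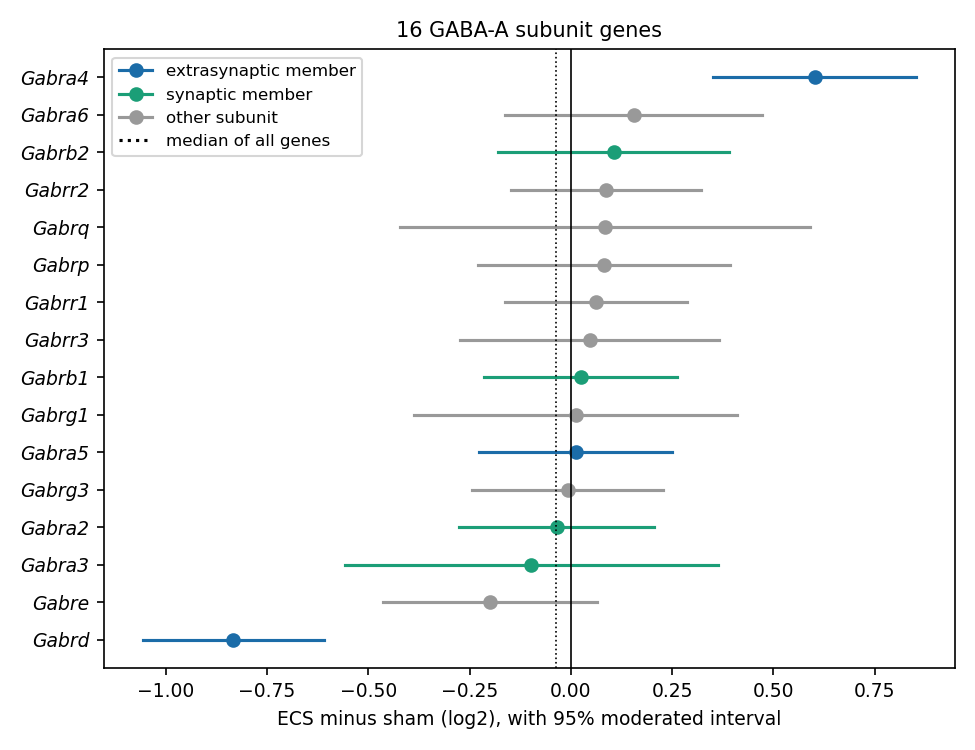
ECS minus sham (log2, horizontal axis) with 95% moderated intervals for 16 GABA-A subunit genes, ordered by difference; blue marks extrasynaptic members, green synaptic members and grey other subunits, and the dotted line is the median of all genes at -0.04. Gabrd at -0.83 and Gabra4 at 0.60 stand at the ends, and all others drawn lie between -0.20 and 0.16.

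Subunit genes form clusters on the mouse chromosomes. On chromosome 5, in RefSeq order, Gabrg1 had 0.01, Gabra2 -0.03, Gabra4 0.60 and Gabrb1 0.02. On chromosome 7, the neighbours Gabrg3 and Gabra5 had -0.01 and 0.01. On chromosome 11, the neighbours Gabra6 and Gabrb2 had 0.16 and 0.11.

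Genes around the receptor were read from lists of the pathway. In the scaffold, anchoring and trafficking list none of 21 passed, 7 were higher and 5 lower on both ECS arrays (18.7% and 30.7% of all genes), and the median was 0.03. Plcl1, which encodes an inositol phosphate binding protein (PRIP-1) that takes part in receptor trafficking, had the highest value in it, from 7.72 and 7.90 to 8.55 and 8.42 (0.68 ± 0.11 SE, adjusted p = 0.0881). Shisa7, an auxiliary subunit gene of GABA-A receptors, had the lowest, from 8.60 and 8.91 to 8.42 and 8.17 (-0.46 ± 0.15 SE, adjusted p = 0.227, from 2 probesets). Gphn, which encodes the main scaffold gephyrin, had 0.03, and Rdx, the radixin gene whose protein anchors alpha5 receptors, had 0.19 ± 0.26.

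None of 9 genes for GABA synthesis, vesicle loading, uptake and breakdown passed, and their median was -0.08. Gad1, a GABA synthesis enzyme gene, had the highest difference (0.14, adjusted p = 0.479). Slc6a13, a GABA transporter gene of meninges and other non-neuronal cells, had the lowest (-0.45 ± 0.26 SE, adjusted p = 0.431), with 8.64 on sham B, the array with the highest choroid plexus markers, and 7.67 to 7.96 on the other arrays. None of 5 measured GABA-B receptor and auxiliary genes passed, from -0.16 for the receptor gene Gabbr2 to 0.21 for the auxiliary subunit gene Kctd8. Kctd12b was among the dimmest 25% of genes, and Kctd12 was not analysed here. None of 6 measured chloride gradient genes passed, from -0.26 for the chloride channel gene Clcn2 to 0.06 for the importer gene Slc12a2, and Slc12a5, which encodes the neuronal chloride exporter KCC2, had -0.16. Wnk3, of the same list, was not analysed here.

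Enzymes of neurosteroid synthesis, which makes potent modulators of delta receptors, had no call among 6 genes and a median of -0.16. Srd5a1, the gene of a 5-alpha-reductase that acts on progesterone on the way to allopregnanolone, read 7.26 and 6.96 in sham and 6.64 and 6.59 after ECS (-0.49 ± 0.13 SE, adjusted p = 0.175). Star, which encodes a cholesterol transfer protein of mitochondria, had the highest difference of the list (0.14). Cyp11a1, which encodes the enzyme that starts steroid synthesis from cholesterol, had -0.48 (adjusted p = 0.147) and was among the dimmest 25% of genes, as were Srd5a2 and Akr1c14.

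Of 4 factors known from rodent neurons to act on subunit promoters, Egr3 rose and 3 did not pass. Over all genes 0.5% were called higher. With medians over probesets no gene was called, so the Egr3 call was lost there as well. Egr3, a zinc finger factor reported to activate the alpha4 gene in rat neurons, read 8.91 and 8.78 in sham and 10.4 and 10.5 after ECS (1.58 ± 0.10 SE, adjusted p = 0.0127, from 1 probeset). Egr1, of the same family, had 0.53 ± 0.09 (adjusted p = 0.0940), Creb1 0.27 (adjusted p = 0.304) and Crem, whose ICER form represses CREB targets, 0.21 (adjusted p = 0.331). The Crem value came from the brightest of its 4 distinct transcript rows, with 4 probesets, and which form it measures was not tested. All 4 factors were higher on both ECS arrays, as were 18.7% of all genes. Whether these factors act on Gabra4 in this tissue was not tested.

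**Figure D4:**
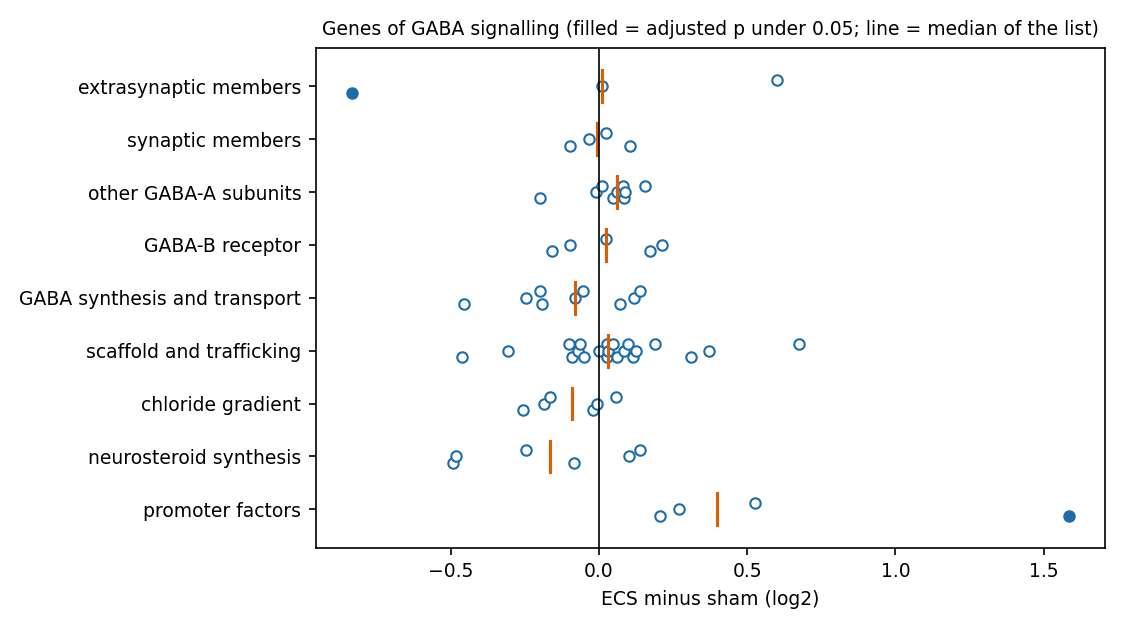
ECS minus sham (log2, horizontal axis) of each measured gene in 9 lists of GABA signalling, 1 point per gene; filled points passed an adjusted p under 0.05 and orange lines are list medians. Gabrd at -0.83 and Egr3 at 1.58 are the filled points, and list medians other than that of the promoter factors lie between -0.16 and 0.06.

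The genes whose 4 array values ran most like those of Gabrd, by distance between values centred on each gene's mean, were Ablim3, an actin-binding protein gene (distance 0.03), Trpa1, a cation channel gene (0.05), and Tiam2, a Rac exchange factor gene (0.06). Their differences were -0.86, -0.79 and -0.84. For Gabra4 they were Sprr2d, an epithelial small proline-rich protein gene (distance 0.02, 2 probesets), Ago2, an effector of small RNA silencing (0.04), and Smok2a (0.06, 3 probesets), with differences of 0.60, 0.63 and 0.58. Trpa1 read 3.94 to 4.76 and Smok2a 4.41 to 5.08, levels where signal over background was not measured. The genes were chosen by these same array values, so differences close to those of Gabrd and Gabra4 follow from the choice. This likeness rests on 4 arrays and is a description.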

How the data were processed

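Expression was measured with exon arrays in 4 samples. Per the submitters' processing notes the authors used RMA and oligo; their versions and the build are not given in the sources used here. The deposited values are log2 signals, 1 table per RefSeq transcript and 1 per probeset. The deposited list of probesets per transcript gives each transcript's number of probesets, a value in no expression unit (other). All 22485 transcript rows with a probeset equalled the mean of their probesets within 1e-06, column by column in 1 labelled sample each; 3621 rows without one are listed at 0 and were left out. Columns named for 0 h were read as sham and those for 4 h as ECS. Of 25635 RefSeq identifiers 24932 matched a table of GRCm38.p6 for current symbols. The transcript row with the highest mean stood for a gene.

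ECS was compared with sham in limma 3.58.1 (R 4.3.3; lmFit and eBayes, two-sided), without a filter or block. Benjamini-Hochberg adjustment ran over 18010 genes or 229712 probesets. The script was tested on simulated data. Errors are moderated standard errors, with 2 residual and 3.23 prior degrees of freedom for genes, and the number of arrays limits the precision. The members and lists were chosen with earlier results of these data known, and nothing was tested over the members alone. Named were all members, each list's called, highest and lowest genes and the 3 nearest genes of Gabrd and Gabra4; other genes were named after their values were seen. A few subunit genes are not reported here, and lists were summarised without them. Alternatives were arrays left out, other scalings, filters, moderation, thresholds, probeset summaries and a replicate block.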

Additional observations from a re-analysis of the deposited data

How the results depend on the processing

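Of the 7 genes 1 was called lower and 0 higher. The lower call, Gabrd, was lost with any 1 array left out (differences from -0.86 to -0.81). It was also lost with median centring, with probeset medians and with the replicate block. Gabrd kept its call with quantile normalization, with the dim filter and with trend and robust moderation. Averaging over transcript rows or dropping shared probesets could not alter the Gabrd values, so neither tests its call. Gabrd has 1 distinct row, and none of its 8 probesets is shared. Gabra4 made 1 higher call with the dimmest genes left out, with trend and robust moderation and at an adjusted p under 0.10. Over all alternatives Gabrd lay between -1.06 and -0.76 and Gabra4 between 0.50 and 0.67. Small differences changed sign: Gabra2 with median centring (0.037) and from -0.086 to 0.016 with 1 array left out, Gabra3 from -0.36 to 0.16, Gabra5 from -0.040 to 0.064 and with quantile normalization (-0.0028), and Gabrb1 from -0.025 to 0.074. Over all genes 90 were called higher and 35 lower; counts were 0 to 5 and 0 to 2 with 1 array left out, 80 and 18 after median centring, 242 and 216 without the dimmest genes, 365 and 352 with trend and robust moderation, 219 and 180 at 0.10, and 0 and 0 with probeset medians. Replicate numbers are not shown to pair the samples (deviations of same-numbered samples correlated at -0.203); as a block they gave 26 and 6 calls, and adjusted p of 0.123 for Gabrd and 0.220 for Gabra4. No member probeset was called under any alternative tried for probesets. A group reduced to 1 array borrowed its spread from the other group. Leaving out an array lowers the number of arrays in the fit but not the number of genes tested, 18010. Leaving out dim genes lowers the number of genes tested to 13507. The cause of the changed calls was not tested.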
